A study of Mus musculus with 24 samples.

Results

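Retinoic acid receptors and genes that take up, bind, break down or respond to retinoids were followed by RNAseq in mouse ESCs and in NPCs derived from them. The 9 genes were chosen by name (Rara, Rarb, Rarg, Cyp26a1, Cyp26b1, Crabp1, Crabp2, Stra6 and Dhrs3), and all 9 were found among the 21909 gene symbols of the expression tables. The study compared regions of chromatin that contact the nucleolus (nucleolar-associated domains, NADs) between both cell types, and RNAseq gave the expression of genes inside and outside these regions. NADs were mapped in ESC lines that carry a Dam methylase fused to histone H2B (H2B-Dam), with or without a nucleolar signal (NoLS). The fusion was induced with doxycycline and Shield1 in these lines and in NPCs made from them. The labels of the RNA samples name no such line or induction. ESCs were E14 cells kept in medium with N2/B27 supplement, LIF (1000 U/ml) and the kinase inhibitors CHIR99021 (3 µM) and PD0325901 (1 µM). They gave 3 RNA samples labelled as replicates. NPCs were obtained from E14 cells over 8 days as floating embryoid bodies in 10% fetal calf serum. Here 2 µM retinoic acid was present during the final 4 days, and 3 RNA samples were again labelled as replicates. Retinoic acid, serum, loss of LIF and inhibitors, and differentiation itself thus changed together between the groups and cannot be told apart, nor can a batch, since the tables of ESCs and NPCs were made separately and no shared batch is labelled.

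Retinoic acid is made inside cells from vitamin A (retinol) through retinaldehyde, and it acts through nuclear receptors (RARs) that bind DNA together with a retinoid X receptor (RXR). Cells that receive it commonly raise genes for its own breakdown and storage, so that enzymes of the CYP26 family and several binding proteins serve as textbook readouts of the signal. In embryonic cells the pathway is known for patterning the hindbrain and spinal cord and for driving pluripotent cells towards neural fates.

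The deposited values are RPKM, that is reads scaled for gene length and sequencing depth. Low values stepped by whole reads when multiplied by the full length of the gene, introns included: 96.5% to 97.0% of values between 1 and 20 reads came out whole within 0.05 reads. The RPKM are therefore per kilobase of the whole gene, and genes with long introns have small values. Levels of different genes are given below as RPKM per exon length, rescaled with the annotated exon lengths, and the steps also gave back the reads behind each value. By the same steps, the samples were scaled to 34.1, 33.7 and 30.8 M reads in ESCs and to 30.2, 27.3 and 32.3 M reads in NPCs.

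ESC replicate 3 stood apart from the other ESC samples. Over the 7848 tested genes its log2 values correlated at 0.963 and 0.966 with ESC replicates 1 and 2, which correlated at 0.999 with each other, whereas NPC samples correlated at 0.996 to 0.999. The summed RPKM was 141243 in ESC replicate 3 against 105011 and 106892 in the others. The main differences between the groups are therefore also given without it.

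The identity of the cells was checked on marker genes. Pou5f1, a core pluripotency factor, had 130, 136 and 202 RPKM in ESCs and 0.0558, 0.0386 and 0.0651 RPKM in NPCs, and all 7 ESC markers fell, beside 33.3% of all tested genes, 6 of which were below 1 RPKM in every NPC sample and so could be tested through their ESC values only. Pax6, a transcription factor of radial glia, had 0.0134, 0.0167 and 0.00457 RPKM in ESCs and 1.55, 1.42 and 1.67 RPKM in NPCs. Of 6 tested neural progenitor markers 4 rose, beside 36.9% of all tested genes (Nes, and Pax6, Pou3f2 and Sox1, which passed the filter through NPC values only), Vim did not pass the test (adjusted p = 0.204, limma, and 0.00209 without ESC replicate 3, where it was called higher), and Sox2, which ESCs share with neural progenitors, fell by 4.02 on the log2 scale.

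Markers of other lineages were also present in NPCs, in which the label names neural progenitors only. The 12 mesoderm and mesenchyme markers summed to 350, 359 and 351 RPKM per exon length in NPC replicates 1 to 3 against 4.42 to 5.58 in ESCs, with Col3a1 the most abundant in NPCs. The 8 tested ones passed the filter through their NPC values only, so that their rise was fixed by the filter. Per exon length 10 were tested through NPC values only, and 1 through ESC values only. The latter was T, a gene of the primitive streak, with 3.80, 4.12 and 3.43 RPKM per exon length in ESCs and 0.0648, 0.0359 and 0.0454 in NPCs, without overlap. Without the filter T and Mixl1 (adjusted p = 0.0164, limma) were called lower, beside 22.9% of all genes. The 7 endoderm markers summed to 198, 206 and 208 RPKM per exon length in NPCs against 0.873 to 1.19 in ESCs, with Gata4 the most abundant and Afp and Cubn below 1. The 5 tested ones likewise passed the filter through NPC values only and had to rise. Neuron and neural crest markers were examined as well. The 7 neuron markers summed to 169, 174 and 229 RPKM per exon length in ESCs and 62.0, 51.6 and 59.8 in NPCs, and of 3 tested ones 1 rose and 2 fell, beside 36.9% and 33.3% of all tested genes, with 1 rise and 1 fall fixed by the filter. The sum was carried by Stmn2 and Tubb3, which fell, whereas per exon length the other 5 neuron markers were called higher, beside 43.7% of all genes, and had to rise, as they passed the filter through NPC values only. The 5 neural crest markers summed to 29.9, 31.7 and 22.6 in ESCs and 11.9, 12.0 and 11.4 in NPCs, and the 2 tested ones fell, 1 of them fixed by the filter. The 4 endothelial markers summed to 39.6, 38.3 and 29.5 in ESCs and 49.4, 42.7 and 41.2 in NPCs. Per exon length 2 of them (Cdh5 and Kdr) were called higher and 1 (Pecam1) lower, beside 43.7% and 29.4% of all genes. Both rises were fixed by the filter. Summed neural progenitor markers were 303 to 334 in NPCs and 310 to 347 in ESCs, with Vim the most abundant in both. Since these are bulk samples, a change in the share of cells that express a gene and a change of RNA per cell cannot be told apart, and the part that mesenchymal, endodermal or endothelial cells had in the values of the retinoid genes was not tested.

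All 9 genes had higher values in every NPC sample than in any ESC sample, a pattern shared by 45.5% of the 18360 genes above 0 in any sample and by 41.6% of the 7848 tested genes. For testing, genes needed at least 1 RPKM in at least 3 samples, which 8 of the 9 passed (Rarb did not), and Cyp26a1, Cyp26b1, Crabp2, Stra6 and Dhrs3 passed through their NPC values only, so that they had to differ. With limma on log2(RPKM + 1), each of the 8 was called higher in NPCs, beside 36.9% of the 7848 tested genes called higher and 33.3% called lower. Without the filter all 9 were called higher, beside 39.5% of the 18360 genes, and with RPKM per exon length again all 9, beside 43.7% of 12028 genes. On that scale Rarb, Cyp26a1, Cyp26b1, Stra6 and Dhrs3 passed the filter through NPC values only and had to differ.

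**Figure D1:**
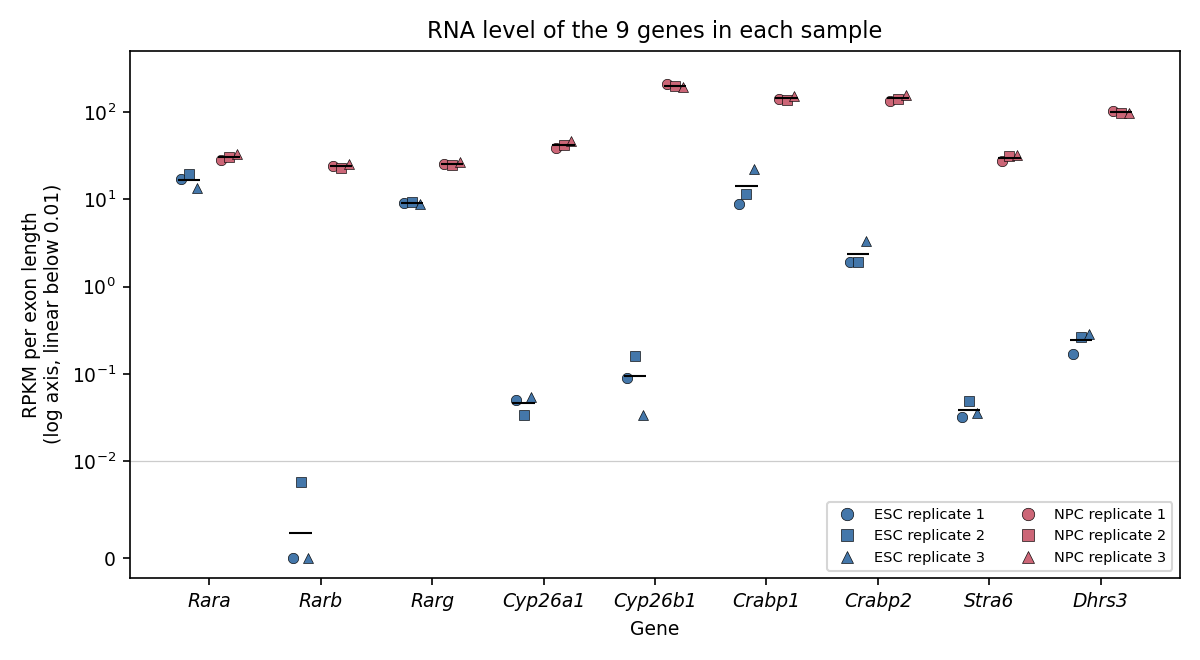
RNA level of the 9 genes as RPKM per exon length (vertical axis, logarithmic above 0.01 and linear below) in the 3 ESC samples (blue) and the 3 NPC samples (red), with symbols for replicates and bars for group means. NPC samples lie above ESC samples for every gene, with the smallest gap for Rara and ESC values near 0 for Rarb.

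Among the receptors, Rara, the most widely expressed RAR, was present in both cell types. It had 1.56, 1.80 and 1.25 RPKM in ESCs and 2.62, 2.80 and 3.06 RPKM in NPCs. The groups did not overlap, and ESC replicate 3 was the lowest sample. The difference was 0.60 ± 0.10 (SE) on the log2(RPKM + 1) scale (limma, adjusted p = 0.00186, n = 3 per group) and 0.51 without ESC replicate 3, and at equal depth NPCs had 1.83 times the Rara reads of ESCs. It was the smallest rise of the 8 tested genes.

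Rarg, the receptor paralog known from early embryos and skin, had 1.36, 1.40 and 1.34 RPKM in ESCs and 3.82, 3.69 and 4.04 RPKM in NPCs. The ESC samples were close to each other (SD 0.0301 RPKM, n = 3), and all NPC samples were above all ESC samples. Rarg rose by 1.03 ± 0.06 on the log2 scale (limma, adjusted p = 1.43e-05; 1.02 without ESC replicate 3), and reads at equal depth were 2.82 times those of ESCs.

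Rarb, a receptor gene that is itself a classical target of retinoic acid, was nearly silent in ESCs. It had 0, 0.000076 and 0 RPKM in ESCs, which is 0, 1 and 0 reads, and 0.233, 0.223 and 0.247 RPKM in NPCs, which is 2732, 2363 and 3104 reads. The gene spans 388 kb on chromosome 14, introns included, and per exon length NPCs had 24.0, 22.9 and 25.4 RPKM. Reads at equal depth were 9008 times higher in NPCs, with a 95% counting interval from 1616 to 355842 because the ESC side holds 1 read. Without ESC replicate 1 the ratio was 5896, and without ESC replicate 2, which holds that read, NPCs were at least 1975-fold higher against a floor of 3 reads over the group. Rarb failed the filter on deposited values, and was called higher in NPCs without the filter (adjusted p = 3.92e-06) and per exon length (difference 4.65 ± 0.08 on the log2 scale, adjusted p = 1.15e-07, limma, and 4.64 without ESC replicate 3).

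The end of Rarb overlaps Top2b, a topoisomerase gene on the other strand, and whether strand was used in counting could not be settled. How many reads of Rarb came from Top2b was not tested. Top2b had 1652, 1359 and 886 reads in ESCs, where Rarb had 1 read in all, and 9090, 8393 and 9989 reads in NPCs.

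The makeup of receptor RNA differed between the cell types. Per exon length, Rara, Rarb and Rarg together had 26.0, 28.8 and 22.4 RPKM in ESCs and 77.8, 77.8 and 85.5 RPKM in NPCs, 3.12 times higher on average. In ESCs Rara made up 65.1%, 67.8% and 60.4% of this sum, Rarg 34.9%, 32.2% and 39.6%, and Rarb at most 0.0272%. In NPCs the receptors were close to equal, with Rara at 36.6%, 39.0% and 38.8%, Rarb at 30.8%, 29.5% and 29.8%, and Rarg at 32.6%, 31.5% and 31.4%. The share of Rara differed by -26.3 percentage points and that of Rarb by 30.0 points in NPCs, without overlap of the groups (two-sided exact permutation test, p = 0.1 each, the smallest p that 3 against 3 samples allow). Without ESC replicate 3 these differences were -28.3 and 30.0 points, and on the deposited scale, which lowers the part of the long Rarb gene, -11.7 and 3.40 points. The share of Rarg overlapped between the groups (35.6% ± 3.7 against 31.8% ± 0.7, SD, n = 3, exact p = 0.2), and its difference was -1.74 points without ESC replicate 3 and changed sign to 8.34 points on the deposited scale.

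**Figure D2:**
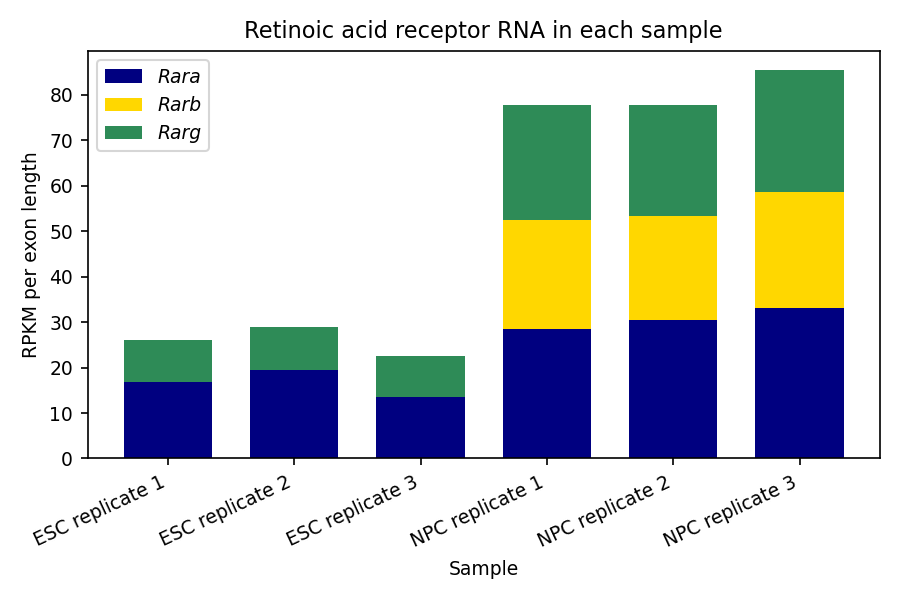
Stacked RNA level of Rara, Rarb and Rarg (vertical axis, RPKM per exon length) in each of the 6 samples (horizontal axis). The bars reach 22.4 to 28.8 in ESCs, with almost no Rarb, and 77.8 to 85.5 in NPCs, where the 3 receptors take similar parts.

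Crabp1 and Crabp2 encode small cytoplasmic proteins that bind retinoic acid, and Crabp2 is known to hand it to RARs. Crabp1 had 0.843, 1.11 and 2.13 RPKM in ESCs and 13.3, 13.0 and 14.6 RPKM in NPCs. Crabp2 had 0.368, 0.365 and 0.628 RPKM in ESCs and 25.4, 26.6 and 29.9 RPKM in NPCs. ESC replicate 3 was the highest ESC sample for both genes, and every NPC sample was well above it. Crabp1 rose by 2.67 ± 0.20 (limma, adjusted p = 3.31e-05) and Crabp2 by 4.28 ± 0.11 (adjusted p = 2.68e-07), and without ESC replicate 3 the differences were 2.89 and 4.37. Reads at equal depth were 10.2 and 61.1 times higher in NPCs.

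Stra6 encodes a membrane receptor that takes up retinol from its carrier in serum. It had 0.0013, 0.00197 and 0.00144 RPKM in ESCs, which is 4, 6 and 4 reads, and 1.09, 1.25 and 1.28 RPKM in NPCs, about 2967, 3078 and 3726 reads. All ESC samples were thus at a few reads and all NPC samples above the filter of 1 RPKM. The difference was 1.14 ± 0.04 on the log2(RPKM + 1) scale (limma, adjusted p = 9.27e-07, and also 1.14 without ESC replicate 3), a scale that understates changes of low values, and 4.89 ± 0.10 per exon length. Reads at equal depth were 767 times higher, with a 95% counting interval from 457 to 1403. Ccdc33, on the other strand, overlaps Stra6 and had at most 1 read in any ESC sample and 29 to 39 reads in NPC samples.

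Cyp26a1 and Cyp26b1 encode cytochrome P450 enzymes that inactivate retinoic acid. Cyp26a1 had 0.0237, 0.0159 and 0.0262 RPKM in ESCs, 3, 2 and 3 reads, and 18.5, 19.8 and 22.0 RPKM in NPCs, about 2090, 2015 and 2655 reads. Cyp26b1 had 0.0196, 0.0343 and 0.00722 RPKM in ESCs, 15, 26 and 5 reads, and 44.4, 42.4 and 41.0 RPKM in NPCs, about 30123, 25993 and 29799 reads. Both genes were therefore close to the detection limit in all ESC samples and high in all NPC samples. On the deposited scale Cyp26b1 rose by 5.42 ± 0.07 (limma, adjusted p = 1.42e-07), the 11th largest rise of the 7848 tested genes. Cyp26a1 rose by 4.36 ± 0.09 (adjusted p = 1.86e-07), the 36th largest. Without ESC replicate 3 the differences were 5.41 and 4.37. Per exon length the rises of Cyp26b1 and Cyp26a1 ranked 3rd and 54th of 12028 genes. At equal depth the reads of Cyp26b1 were 2052 times (95% counting interval 1538 to 2803) and Cyp26a1 928 times (471 to 2151) higher in NPCs. The ESC reads of Cyp26b1 varied by more than the interval covers, and without ESC replicate 2 the ratio was 3104.

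Dhrs3, an enzyme that reduces retinaldehyde back to retinol and thereby limits retinoic acid synthesis, followed the same pattern. It had 0.0125, 0.0193 and 0.0211 RPKM in ESCs, 15, 23 and 23 reads, and 7.44, 7.05 and 7.13 RPKM in NPCs, about 7938, 6801 and 8153 reads. The ESC samples were all at a few reads, and every NPC sample was far above them. Dhrs3 rose by 3.01 ± 0.06 (limma, adjusted p = 1.86e-07, and also 3.01 without ESC replicate 3), with 412 times the reads of ESCs at equal depth (95% counting interval 321 to 539).

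Levels of the 9 genes were then ordered per exon length. In NPCs Cyp26b1 was highest (198 ± 7.9 RPKM per exon length, SD, n = 3), followed by Crabp2 (143 ± 12), Crabp1 (142 ± 8.6), Dhrs3 (99.0 ± 2.8), Cyp26a1 (42.2 ± 3.7), Rara (30.7 ± 2.4), Stra6 (29.9 ± 2.5), Rarg (25.6 ± 1.2) and Rarb (24.1 ± 1.3). Crabp2 and Crabp1, Rara and Stra6, and Rarg and Rarb overlapped between samples, and the other neighbours in this order did not. By this measure Cyp26b1 ranked 194th of 20445 genes in NPCs, and all 9 genes had higher levels than 83.9% of genes or more. In ESCs the order was Rara (16.7 ± 3.0), Crabp1 (14.2 ± 7.1), Rarg (9.08 ± 0.20), Crabp2 (2.37 ± 0.79), Dhrs3 (0.242 ± 0.063), Cyp26b1 (0.0944 ± 0.0628), Cyp26a1 (0.0461 ± 0.0112), Stra6 (0.0389 ± 0.0088) and Rarb (0.0026 ± 0.0045). Crabp1 overlapped with Rara and Rarg, and Cyp26b1, Cyp26a1 and Stra6 overlapped with one another, at 2 to 26 reads per sample.

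Paralogs were set against each other as log2 ratios, per exon length with a pseudocount of 1. In NPCs Cyp26b1 was 4.68 times as high as Cyp26a1. In ESCs both genes were far below the pseudocount, which sets their log2 ratio there near 0. This ratio thus cannot show whether their rises differed. The counting intervals of their ratios of reads overlapped, but overlap is no test of a difference, and these intervals cover counting error only. The log2 ratio of Crabp1 over Crabp2 was 1.74, 2.11 and 2.44 in ESCs and 0.06, -0.03 and -0.04 in NPCs, where both genes had similar levels. The ratio of Rarg over Rara was -0.83, -0.998 and -0.56 in ESCs and -0.16, -0.30 and -0.30 in NPCs. Rarb over Rara was at -4.16, -4.35 and -3.86 in ESCs, where the pseudocount stands in for Rarb, and at -0.24, -0.39 and -0.37 in NPCs. None of these 3 ratios overlapped between the groups, and each gave p = 0.1 in a two-sided exact permutation test (0.1 also after adjustment over 4 pairs), the smallest p possible. Their differences were -2.10, 0.54 and 3.79 (log2), and -1.93, 0.66 and 3.92 without ESC replicate 3. On the deposited scale, where Rarb values are far below the pseudocount, the difference for Rarb over Rara was -0.29.

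RXRs, the DNA-binding partners of RARs, were examined next. Rxra had 0.296, 0.311 and 0.214 RPKM in ESCs and 1.49, 1.45 and 1.43 RPKM in NPCs. Rxrb had 9.20, 10.1 and 10.1 RPKM in ESCs and 14.0, 15.7 and 16.1 RPKM in NPCs. Rxrg had no reads in ESCs and 0.0796, 0.0454 and 0.0511 RPKM in NPCs. No RXR gene overlapped between the groups, and each was higher in NPCs. This pattern was shared by 45.5% of the 18360 genes above 0 in any sample and by 41.6% of tested genes. Rxra (0.95 ± 0.04, limma, adjusted p = 2.92e-06) and Rxrb (0.59 ± 0.09, adjusted p = 0.00153) rose, beside 36.9% of all tested genes. Without ESC replicate 3 their rises were 0.92 and 0.61. Rxra passed the filter through NPC values only and had to differ, and Rxrg was below the filter, with reads at least 79.8-fold higher in NPCs against a floor of 3 reads over the ESC group. Per exon length the RXR genes summed to 27.7 ± 1.2 RPKM in ESCs and 60.5 ± 1.9 in NPCs. On average Rxra made up 15.6% of this sum in ESCs and 38.2% in NPCs.

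Of 16 other genes of retinoid synthesis and degradation, 6 were tested, 4 rose and 1 fell, beside 36.9% and 33.3% of all tested genes. Of the 4 rises, those of Lrat and Rdh10 were fixed by the filter, which both passed through NPC values only. Among the 6 genes tested on the deposited scale, the largest rises were Lrat, which esterifies retinol for storage (0, 0.0104 and 0 RPKM in ESCs, 2.74, 1.92 and 1.61 in NPCs, 1.61 ± 0.13), Rdh14 (1.39 ± 0.11) and Rdh10, which oxidises retinol to retinaldehyde (0.242, 0.240 and 0.198 RPKM against 1.83, 1.78 and 1.60, 1.16 ± 0.05). Adh5, a widely expressed dehydrogenase, fell by 1.09 on the log2 scale. Without ESC replicate 3 Rdh13 was also called lower (adjusted p = 0.00239). Without the filter 7 genes of the list were called higher and 2 lower, beside 39.5% and 22.9% of all genes. The falls were Adh5 and Aldh1a3, which makes retinoic acid from retinaldehyde and had 96, 95 and 74 reads in ESCs and 5, 7 and 4 reads in NPCs (limma, adjusted p = 3.35e-05). Its paralog Aldh1a2, which also makes retinoic acid from retinaldehyde, was below the filter at 0.105, 0.106 and 0.0808 RPKM in ESCs and 0.890, 0.866 and 0.868 RPKM in NPCs. Per exon length it was tested and rose (2.86 on the log2 scale, adjusted p = 1.15e-06), as did Cyp26c1 (1.70, adjusted p = 1.20e-05), and this scale gave 6 rises and 1 fall among 9 tested genes, beside 43.7% and 29.4% of all genes, with the rises of Lrat and Cyp26c1 fixed by the filter. On this scale the largest rises were Aldh1a2, Rdh10 (2.56), Lrat (2.41) and Rdh14 (1.89), in this order.

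Of 8 retinoid carriers 2 were tested and both rose, beside 36.9% of all tested genes, and per exon length 5 were tested and 5 rose, beside 43.7%. Of these, 1 of 2 and 3 of 5 passed the filter through NPC values only and had to rise. Without the filter 6 were called higher and 2 lower, beside 39.5% and 22.9% of all genes. Fabp5, a fatty acid-binding protein that can also carry retinoic acid, had 2.45, 2.05 and 3.43 RPKM in ESCs and 17.4, 17.8 and 16.0 RPKM in NPCs. The groups did not overlap, and ESC replicate 3 was the highest ESC sample. Fabp5 rose by 2.33 ± 0.15 on the log2 scale (limma, adjusted p = 1.60e-05) and by 2.48 without ESC replicate 3.

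The calls of receptor coregulators depended on ESC replicate 3. Of 16 genes 12 were tested, 5 rose and none fell, beside 36.9% and 33.3% of all tested genes. Of the 5 rises 2, that of Nrip1 among them, were fixed by the filter, which these genes passed through NPC values only. The median difference of the 12 was 0.43 against 0.03 over all tested genes, and 0.23 without ESC replicate 3. Among the rises were Nrip1, a corepressor that binds liganded nuclear receptors (0.477, 0.472 and 0.236 RPKM in ESCs, 1.88, 1.74 and 1.72 in NPCs, 1.00 ± 0.08), and Tbl1x (0.68 ± 0.14). ESC replicate 3 was the lowest sample for both genes. Without it 7 coregulators were called higher and 3 lower (Cnot1, Ncoa3 and Med1), where 43.9% of all tested genes were called higher and 44.0% lower. Cnot1 shows the spread, with 11.3, 11.3 and 3.33 RPKM in ESCs and 6.77, 6.39 and 6.62 RPKM in NPCs.

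Genes known from textbooks as targets of retinoic acid came next. Of 16 such genes 13 were tested, and all 13 passed the filter through NPC values only, so that their rise was fixed by the filter. Per exon length the same held for 12 of 15 tested ones, and the values below are given as descriptions. On the deposited scale the largest rises were Hoxa4 (0.0141, 0.114 and 0.0156 RPKM in ESCs, 54.0, 49.1 and 48.3 in NPCs, 5.62 ± 0.09), Hoxb4 (5.19 ± 0.07), both homeobox genes that pattern the hindbrain and neck region, and the orphan nuclear receptor gene Nr2f2 (0.0477, 0.0722 and 0.0373 RPKM against 35.6, 35.2 and 32.8, 5.08 ± 0.07). Per exon length the order was Nr2f2 (6.51), Hoxa4 (6.03), Nr2f1 (5.77) and Hoxb4 (5.54). Meis1 and Meis2, which encode cofactors of Hox proteins, rose by 1.23 ± 0.03 and 1.36 ± 0.04 on the deposited scale, and by 5.40 and 3.82 per exon length. Cdx1 went the other way, with 0.537, 0.573 and 1.00 RPKM in ESCs and 0.0210, 0.0127 and 0.0286 RPKM in NPCs. It was below the filter and per exon length it passed through ESC values only. Without the filter Cdx1 and Stra8, a germ cell gene, were both called lower, where 22.9% of all genes were.

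Among 11 genes that carry induction or response to retinoic acid in their names, 2 of which are Stra6 and Dhrs3, 5 were tested, 4 rose and 1 fell, beside 36.9% and 33.3% of all tested genes. Stra6, Dhrs3 and Rai1 passed the filter through NPC values only, and Gprc5a through ESC values only. Beside Dhrs3, the largest rises on the deposited scale were Bhlhe40 (2.44, 2.13 and 1.85 RPKM in ESCs, 20.8, 16.8 and 20.7 in NPCs, 2.70 ± 0.12) and Rai1 (1.63 ± 0.09). Gprc5a fell by 0.75 on the log2 scale, and had 19.3, 21.1 and 17.3 RPKM per exon length in ESCs and 7.09, 8.46 and 7.37 in NPCs. Per exon length 10 of the 11 were tested, 8 rose and 1 fell, beside 43.7% and 29.4% of all genes, and 6 of the 8 had to rise, as they passed the filter through NPC values only. On this scale Stra6 (4.89) and Rai2 (4.00) rose by more than Rai1 (3.25) and Bhlhe40 (2.92). Gene names of this kind record where a gene was first found and not a shared function.

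The genes with the nearest deposited values were found by Euclidean distance of log2(RPKM + 1) over the 6 samples. These values are per whole gene, so that near values are not equal RNA levels: per exon length in NPCs, Hoxb4 had 47.9, 50.8 and 51.4 RPKM and Cyp26b1 206, 197 and 190. For Cyp26b1 they were Hoxb4 (distance 0.345) and Adamts1 (0.419), and for Cyp26a1 Flnc (0.232) and Fzd1 (0.242). Among the genes near Dhrs3 was Lox (0.182), and Stra6 was nearest to Nkx6-1 (0.0808) and Slitrk5 (0.0816). Crabp2 was nearest to Emilin1 (0.343) and Hey1 (0.602), Crabp1 to H2-K1 (0.506) and Bambi (0.566), Rarg to Tsc22d4 (0.141) and Oaz2 (0.176), and Rara to Zkscan17 (0.153) and Clint1 (0.166). The tested genes nearest to Rarb, Hoxd4 (1.27) and Ppp1r9a (1.27), were far from it, because its deposited values are below the filter.

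The positions of the 9 genes were set against the NADs of both cell types (1769 in ESCs, 1447 in NPCs). These NADs come from the induced H2B-Dam and H2B-Dam-NoLS lines and not from the cells of the RNA samples. Rarb was the only one of them whose gene body overlapped a NAD, beside 27.1% of all genes in ESCs and 21.6% in NPCs. In ESCs a NAD at chr14:16198576-16499977 covered 17.8% of Rarb, at the end of the gene. In NPCs a NAD at chr14:16100294-17599932 covered all of it (chr14:16430839-16819156). The authors' score of these NADs was above that of 73.9% of the list in ESCs and of 70.1% in NPCs. Rarb thus lay wholly within a NAD in NPCs, and it had 2363 to 3104 reads in each of the separate RNA samples of NPCs. Of the 821 genes tested per exon length that lay wholly in a NAD of NPCs but not of ESCs, 45.3% were called higher and 27.2% lower in NPCs, beside 43.7% and 29.4% of all genes tested on this scale.

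Cyp26b1 lay 6.24 kb from a NAD in both cell types, at chr6:84600143-85100259 in ESCs with a score above 99.2% of the list. Crabp1 was 26.0 kb from a NAD in ESCs and 27.4 kb in NPCs. Rarg (143 kb), Stra6 (446 kb) and Rara (628 kb) were at the same distance in both cell types within 1 kb. Dhrs3 was 71.9 kb from the nearest NAD in ESCs and 472 kb in NPCs, Cyp26a1 198 kb and 498 kb, and Crabp2 249 kb and 947 kb. The NAD of ESCs near Crabp2 had a score above only 0.283% of the list, and that of NPCs near Stra6 above only 0.622% of its list. The list of NPCs also holds fewer NADs, so that nothing is drawn from these distances. Each list holds 1 set of NADs per cell type without replicate values, so that no error can be given for these distances. Counting intervals of the ratios of reads above cover counting error only.

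**Figure D3:**
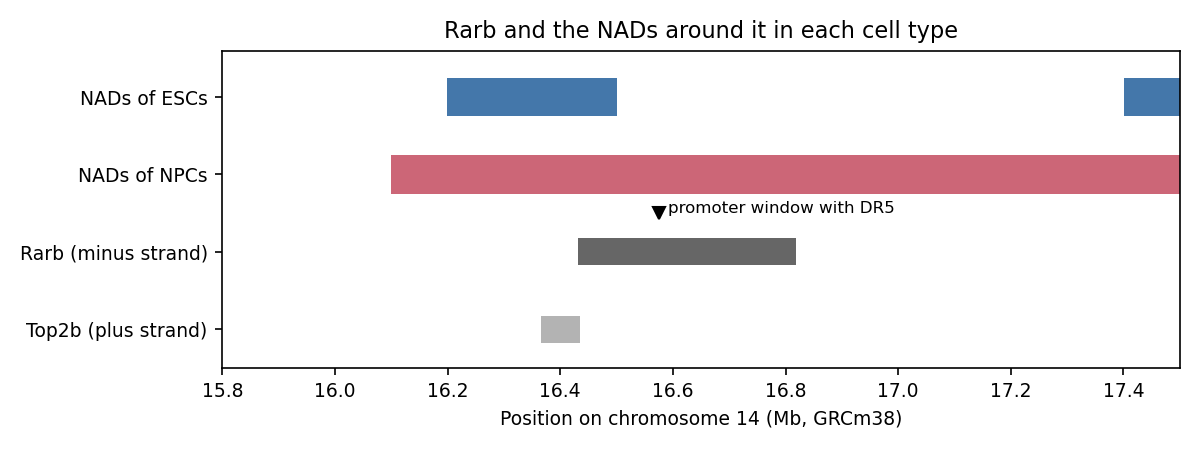
NADs of ESCs (blue) and NPCs (red) around Rarb on chromosome 14 (horizontal axis, position in Mb of GRCm38), with the bodies of Rarb and Top2b in grey and a triangle at the promoter window that holds a DR5. The NAD of ESCs covers 17.8% of Rarb, and that of NPCs covers the whole gene.

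Promoters were searched for the repeats that RAR with RXR is known to bind, as a description with no test. The RefSeq table of GRCm38.p6 gave 17 windows (250 bases before to 50 after a transcription start) for 8 of the genes, with none for Crabp2. Direct repeats of the half-sites AGGTCA (or any of its known variants AGTTCA and also GGGTCA and also GGTTCA) with a spacer of 1, 2 or 5 bases (DR1, DR2 and DR5) were searched on both strands. A DR5 was found for Rarb and Cyp26a1, and 0.0974% of all 32851 promoter windows hold one. No DR1 or DR2 was found in these windows, beside 0.222% and 0.268% of all windows. With AGGTCA alone as half-site no window of the 9 genes matched. Both promoters are shown because they held the only matches in these windows. The windows of the other genes searched, Cyp26b1, Stra6 and Dhrs3 among them, held none. Whether the repeat has a part in any rise was not tested. The bases before the transcription start are given 5′ to 3′ on the strand of the gene (RefSeq, GRCm38.p6), Rarb from chr14:16575477-16575726 on the minus strand (before a start that lies inside the annotated gene) and Cyp26a1 from chr19:37697558-37697807 on the plus strand, with the DR5 in capitals; in Cyp26a1 it lies on the opposite strand and is thus written as its reverse complement. A match is a run of letters and no measurement of binding.
Rarb: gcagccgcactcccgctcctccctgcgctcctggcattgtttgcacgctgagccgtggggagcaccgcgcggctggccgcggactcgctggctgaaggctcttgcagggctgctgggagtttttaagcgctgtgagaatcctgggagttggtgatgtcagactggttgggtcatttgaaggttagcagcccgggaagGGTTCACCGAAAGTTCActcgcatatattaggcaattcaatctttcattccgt
Cyp26a1: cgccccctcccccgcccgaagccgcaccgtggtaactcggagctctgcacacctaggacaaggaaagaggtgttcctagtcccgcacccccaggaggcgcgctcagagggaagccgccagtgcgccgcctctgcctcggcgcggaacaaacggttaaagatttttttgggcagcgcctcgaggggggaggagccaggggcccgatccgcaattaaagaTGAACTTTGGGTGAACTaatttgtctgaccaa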

How the data were processed

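The authors mapped RNAseq reads to mm10 by STAR, after taking out rRNA (SortMeRNA) and trimming (Trimmomatic), and deposited RPKM in 1 table per cell type. NADs came from DamID, with Bowtie2 2.3.4.3 in the alignment, and the authors gave 1 score per NAD and cell type, labelled a log2 ratio.

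The 22064 lines of the tables held 21909 symbols, and the 155 further lines of repeated symbols were summed. Genes with at least 1 RPKM in at least 3 of 6 samples (7848) were tested on log2(RPKM + 1) with limma 3.58.1 (R 4.3.3; lmFit, eBayes with trend, Benjamini-Hochberg, adjusted p below 0.05, two-sided). Of these, 5509 were called, 2898 higher and 2611 lower in NPCs. Other steps used Python 3.11.15, pandas 2.3.3, SciPy 1.17.1 and matplotlib 3.10.9. The groups hold 3 samples each, labelled as replicates, and these labels do not say whether the cultures were separate.

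The design assumed RPKM per transcript length. The deposited RPKM were found to be per length of the whole gene (GENCODE vM21), so levels, shares and paralog ratios use RPKM per exon length (RefSeq exons, GRCm38.p6), which 20445 genes have. No count test was run on the recovered reads. Shares and ratios were compared by exact permutation over 3 against 3 samples.

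The 9 genes are those named at the outset, whatever their values, and genes and lists were chosen with earlier results of these data known. Other gene lists were fixed by name from general knowledge. No protein table was at hand, and identity between proteins was not computed. The label of the NPC samples gives no treatment, and retinoic acid is given in the growth protocol. Some genes of the lists and of the search for near values are not reported here.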

Additional observations from a re-analysis of the deposited data

How the results depend on the processing

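The 8 tested genes were called higher in NPCs in all 18 alternative fits, and Rarb in both exon-length fits and in the fit without the filter. The difference of Rara ranged from 0.43 to 1.25 (log2, largest adjusted p = 0.0115, limma). Of all genes 5509 were called in the chosen fit, and 4627 to 6896 when leaving out 1 sample (2523 to 3443 higher, 2095 to 3453 lower), the most without ESC replicate 3. Without the filter 11455 were called (7247 higher, 4208 lower), per exon length 8792 (5251 higher, 3541 lower), and per exon length without ESC replicate 3 10686 (6008 higher, 4678 lower). Rescaling each sample to the same sum gave 3525 higher and 1590 lower, 68.9% higher against 52.6%, whereas quantile normalization gave 2676 higher and 2999 lower (47.2%) and median centring 2592 higher and 2990 lower (46.4%). A replicate block gave 5225 calls, and replicate numbers did not pair samples: deviations of the same number correlated at 0.113, -0.083 and 0.032, other pairings at -0.089 to 0.089. In synthesis and degradation, 7 rose and 2 fell without the filter, and 2 fell without ESC replicate 3. Of carriers 6 rose and 2 fell without the filter, and 5 rose per exon length. Of coregulators 3 fell without ESC replicate 3, where their median was 0.23 instead of 0.43. Of textbook targets 14 rose and 2 fell without the filter, and 14 rose and 1 fell per exon length. On that scale 12 of 15 tested ones passed the filter through NPC values only and had to rise. Of genes named for retinoic acid 8 rose and 2 fell without the filter, and 8 rose and 1 fell per exon length. Without the filter 39.5% of all genes were called higher and 22.9% lower, and per exon length 43.7% and 29.4%. Without ESC replicate 3 these shares were 43.9% and 44.0% of tested genes. Ratios of reads moved by over 1.5 times for Cyp26b1 without ESC replicate 2 (3104 instead of 2052) and for Rarb without ESC replicate 1 (5896 instead of 9008) or 2 (at least 1975-fold). On the deposited scale the differences of the Rara and Rarb shares were -11.7 and 3.40 points, that of the Rarg share was 8.34 points and that of the log2 ratio of Rarb over Rara -0.29, the last 2 reversed. Counting a gene as in a NAD only if its start lay inside left 0 of 9 genes in ESCs, and AGGTCA alone left no DR5. The cause was not tested for any of these changes. The exon-length fits, the deposited scale for shares and ratios, the settings used for gene lists, and leaving out samples in ratios of reads were chosen after seeing the data.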
